A study of Mus musculus with 39 samples.

Results

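Notch peaks of radial glial cells (RGCs) were compared with Notch peaks of intermediate progenitor cells (IPCs) of the embryonic mouse cortex, to ask which binding sites are kept, lost or gained between the neural stem cell and its transit-amplifying daughter. The set comprised the 3702 peaks of the RGC Notch list and the 2157 peaks of the IPC Notch list on nuclear chromosomes, 5859 of 25453 peaks in the 4 lists that also include RBPJ in both cell types. An RGC peak that shared at least 1 bp with an IPC peak was called kept, an RGC peak without such a partner lost, and an IPC peak without an RGC partner gained.

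Wild-type MF1 embryos were electroporated in utero at E13.5 and the electroporated cortex was dissected at E14.5, in every group used here. In the RGC Notch group (4 samples) a Hes5 promoter fragment drove a Dam methylase fusion, in 2 samples with mouse NICD, the intracellular domain of Notch1, and in 2 with mouse NdECD, which lacks the extracellular domain but holds the transmembrane part. In the IPC Notch group (4 samples) a fragment of the Tα1 (Tuba1a) promoter drove the NICD fusion alone. Mouse NdECD was thus used in RGCs only, and construct and cell type cannot be fully told apart. The fusions to human RBPJ1 were profiled with the same promoters, in 3 samples per cell type. Dam alone served as control in 5 RGC samples, of which the labels tie 4 to the RGC Notch profile, and in 4 IPC samples. Cell identity rests on the promoter fragments, since the lists carry no expression values against which markers could be checked. Fusions were expressed from plasmids for 24 h at most, so the lists give the binding of an introduced Notch fragment. Whether a sample was 1 embryo or a pool is not given in the sources used here.

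Notch is a receptor that is cut when a neighbouring cell presents a ligand such as Delta-like 1. The freed intracellular domain enters the nucleus, joins the DNA-binding protein RBPJ and a Mastermind cofactor, and switches on repressors of the Hes and Hey families, which hold back the proneural genes. In the embryonic cortex this keeps radial glia in the stem cell state, and the pathway is turned down as cells become intermediate progenitors, which express Eomes (Tbr2) and divide to give neurons. In targeted DamID the fusion methylates adenine in GATC sites close to where it sits, and fragments cut at methylated sites are then read by sequencing.

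The authors deposited 1 pooled list per group, holding only peaks called against Dam-only at an FDR under 1e-05 in every pair of fusion and control samples. The lists hold positions and no heights, and no value of a single sample. Depth is therefore unknown, the spread between replicates cannot be read, and a lost peak is a site that did not pass in every IPC pair rather than a site shown to be unbound. A gained peak is likewise a site that did not pass in every RGC pair, not a site shown to be unbound in RGCs. Intervals below are 95% intervals that cover counting error over peaks only. The Notch and RBPJ lists of a cell type were called against Dam-only samples they share.

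Of the RGC Notch peaks, 483 (13.0%) were kept in IPCs and 3219 were lost. With a reciprocal overlap of 50% the kept share was 5.78%. Of the IPC Notch peaks, 509 overlapped an RGC peak and 1648 (76.4%) were gained. The 483 kept RGC peaks included 459 with 1 IPC partner, 21 with 2 and 3 with 3. Together the kept peaks shared 703.8 kb, which was 7.12% of the sequence under RGC Notch peaks and 22.4% of that under IPC Notch peaks. IPC peaks were narrower, and 274 of the 509 lay wholly inside an RGC peak, whereas 67 RGC peaks lay wholly inside an IPC peak. A kept RGC peak was covered over a median of 48.9% of its length (quartiles 30.6 and 76.2%). Few peaks lay close to the limit of the rule. The smallest overlap was 263 bp, and 15 lost peaks and 18 gained peaks ended within 1 kb of a peak of the other cell type, the nearest of them 8 bp away.

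Wide peaks were kept more often than narrow ones. The median width was 2915 bp in kept and 2313 bp in lost RGC peaks, and 1447 bp in kept and 1252 bp in gained IPC peaks. With peaks split by width into 4 classes of near equal size, the kept share of RGC peaks was 9.06% (interval 7.38 to 11.1) in the narrowest class and 18.4% (16.0 to 21) in the widest. Among IPC peaks the share with an RGC partner was 18.5% (15.4 to 21.9) in the narrowest and 27.5% (23.9 to 31.4) in the widest class. Wide peaks have more sequence in which an overlap can fall, and the shares are therefore given with width beside them. Across the 19 autosomes the kept share ran from 7.56% on chromosome 11 to 18.4% on chromosome 13, and the gained share from 64.8% on chromosome 18 to 83.3% on chromosome 19.

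**Figure D1:**
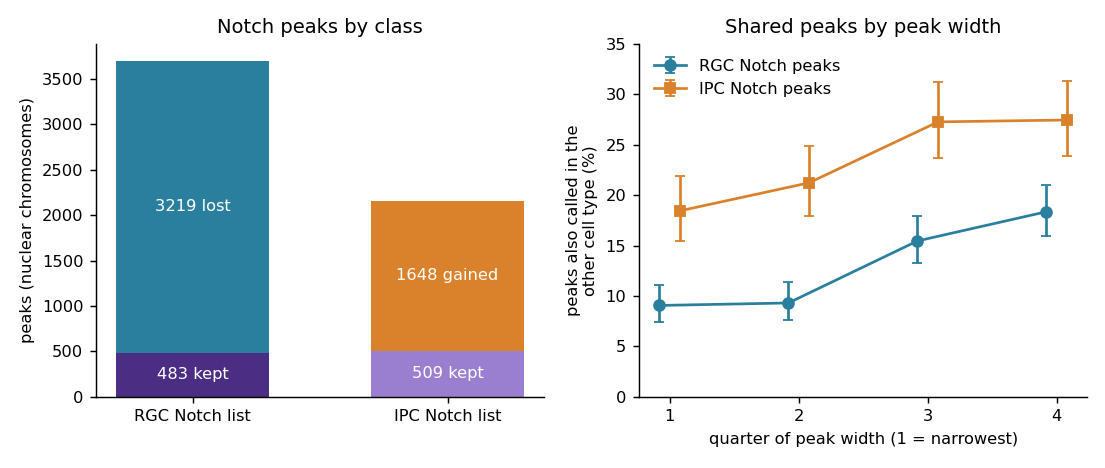
Left, bars count RGC and IPC Notch peaks on nuclear chromosomes by class (483 kept and 3219 lost, 509 kept and 1648 gained). Right, the share of peaks (%) that were also called in the other cell type is plotted by class of peak width, 4 per list, with 95% Wilson intervals, and rises from the narrowest to the widest class in both lists.

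The sequences below are examples from kept, gained and lost sites at genes of the pathway and of radial glia. All are plus-strand GRCm38 (mm10) bases outside annotated exons. Capitals mark TTCCCA or its complement TGGGAA, the core of the RBPJ site, in the Hes1, Nrarp, Hes5, Prdm16 and Msi2 sequences. In the Sox2 and Pax6 sequences they mark TAATTA, read by many homeodomain proteins, and TTGGCA or TGCCAA, part of the site of nuclear factor I (NFI) proteins. The words to mark were set by class, the RBPJ core for kept and lost peaks and the others for gained peaks. The capitals therefore cannot show how the classes differ. The Pax6 sequence also holds an unmarked TTCCCA, and the Prdm16 sequence an unmarked TGCCAA. The Hes1 sequence is the 250 bases before a start site of Hes1, the best known Notch target (chr16:30065090-30065339). The others are the 200 bases with the most such words in the shared part of a kept peak (Hes5 at chr4:154946112-154946311, Nrarp at chr2:25177643-25177842, Prdm16 at chr4:154586122-154586321) or in the gained or lost peaks of a gene (Sox2 at chr3:35149628-35149827, Pax6 at chr2:105690558-105690757, Msi2 at chr11:88588576-88588775). The Nrarp sequence lies upstream of the gene, the Hes5 and Sox2 sequences lie between genes, and those of Prdm16, Pax6 and Msi2 lie in introns, as does the Hes1 sequence in a longer annotated Hes1 transcript.
Hes1: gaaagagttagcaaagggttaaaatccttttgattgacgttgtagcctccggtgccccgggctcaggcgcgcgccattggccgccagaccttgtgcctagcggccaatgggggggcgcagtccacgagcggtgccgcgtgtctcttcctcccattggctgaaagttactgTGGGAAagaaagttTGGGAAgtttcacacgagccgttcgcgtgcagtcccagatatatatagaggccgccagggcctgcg
Nrarp: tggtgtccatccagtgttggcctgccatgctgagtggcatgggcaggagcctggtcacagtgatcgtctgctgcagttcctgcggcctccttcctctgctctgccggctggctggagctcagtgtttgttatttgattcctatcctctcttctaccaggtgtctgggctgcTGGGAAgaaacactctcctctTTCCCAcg
Hes5: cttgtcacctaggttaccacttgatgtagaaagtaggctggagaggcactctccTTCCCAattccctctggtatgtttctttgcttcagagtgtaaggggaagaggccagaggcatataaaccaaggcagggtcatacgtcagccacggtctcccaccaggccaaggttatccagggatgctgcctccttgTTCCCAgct
Prdm16: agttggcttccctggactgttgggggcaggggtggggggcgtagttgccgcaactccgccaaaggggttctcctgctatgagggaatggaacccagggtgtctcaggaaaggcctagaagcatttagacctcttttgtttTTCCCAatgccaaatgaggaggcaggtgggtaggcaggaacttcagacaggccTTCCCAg
Sox2: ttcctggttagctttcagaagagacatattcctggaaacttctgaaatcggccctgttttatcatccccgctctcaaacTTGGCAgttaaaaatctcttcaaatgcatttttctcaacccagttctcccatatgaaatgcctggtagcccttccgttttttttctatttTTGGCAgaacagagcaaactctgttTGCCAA
Pax6: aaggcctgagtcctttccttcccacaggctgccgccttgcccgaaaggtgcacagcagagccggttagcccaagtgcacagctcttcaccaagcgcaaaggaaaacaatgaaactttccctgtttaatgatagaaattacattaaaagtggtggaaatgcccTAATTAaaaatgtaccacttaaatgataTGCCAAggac
Msi2: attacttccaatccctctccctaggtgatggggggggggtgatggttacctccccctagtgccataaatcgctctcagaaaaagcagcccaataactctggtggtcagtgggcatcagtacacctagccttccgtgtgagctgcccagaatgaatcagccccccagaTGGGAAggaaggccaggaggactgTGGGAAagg

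The Hes1 sequence held 2 copies of TGGGAA 8 bases apart on the same strand. It lay inside the RGC Notch peak on the Hes1 start site (chr16:30062417-30067374), whereas the IPC peak there began just after it (chr16:30065358-30067021). Of 32851 promoters of the RefSeq set, 21.6% held at least 1 copy of the word in the 250 bases before the start and 2.77% held at least 2. The Nrarp, Hes5 and Prdm16 sequences held 2 copies each. Among 200-base windows tiled over the peaks, 2 or more copies occurred in 2.01% of windows in kept RGC peaks, 1.77% in lost peaks and 2.33% in gained peaks. The Sox2 sequence held 3 words of the homeodomain or NFI type, as did 0.415% of windows in gained and 0.200% in lost peaks. The 200-base sequences were picked for the most words, whereas the tiled windows were not. The shares therefore do not give how rare the picked sequences are. A match is a match of letters and was not tested for binding.

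The Hes and Hey repressors, the direct output of Notch signalling, carried kept sites at their best known members. Across all 21938 protein-coding genes, 1.88% were nearest to a kept peak, 10.6% to a lost peak and 5.80% to a gained peak. Of the 10 Hes and Hey genes, 3 had a kept peak (Hes1, Hes5 and Hey1), 4 a lost peak (the same 3 and Helt) and 1 a gained peak (Hes1). Their kept peaks came to 2.99 per Mb of territory, the DNA for which a listed gene has the nearest start site, against 0.177 per Mb over all protein-coding genes. Hes2, Hes3, Hes6, Hes7, Hey2 and Heyl had no Notch peak in either cell type.

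At Hes1, RGCs had 2 Notch peaks and IPCs had 4. The peak on the start site was kept and was called in both RBPJ lists. A second RGC peak lay 208 kb upstream and was lost. In IPCs, gained peaks lay 179 kb upstream (chr16:29880506-29885223, 4718 bp wide, with 10 copies of TTCCCA and a peak in both RBPJ lists), 118 kb upstream and 1.24 kb downstream of a start site. All 3 gained sites lay under an RGC RBPJ peak although Notch was not called there in RGCs. Hes5, a repressor largely restricted to neural stem cells, had 1 kept peak 12.7 kb upstream as measured from the RGC peak (chr4:154942827-154948226, shared over 881 bp) and 1 lost peak 6.64 kb upstream. No Notch peak of either cell type touched the 1 kb before its start sites. The electroporated RGC plasmids carry a Hes5 promoter fragment, and a peak of the RGC RBPJ list did lie in that 1 kb. The part of plasmid DNA there was not tested. At Hey1 a peak 50.3 kb upstream was kept over 1236 bp and a second RGC peak nearer to the gene (chr3:8684794-8687347) was lost.

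Among the 28 modulators and cofactors of the pathway, 4 had a kept peak, 7 a lost peak and 1 a gained peak. Nrarp, a feedback inhibitor induced by Notch, had 1 peak in each cell type, shared over 3031 bp just upstream of the gene and present in both RBPJ lists. Maml3, which encodes a Mastermind coactivator, had 1 kept peak, in an intron, and 4 lost peaks, of which 3 were intronic. Numb, an inhibitor of Notch, had 1 kept and 1 lost peak, the kept one shared over only 323 bp. Nepro, named in the study as a Notch target, had 1 kept, 4 lost and 1 gained peak, all upstream. Fbxw7, whose product marks the intracellular domain for degradation, had 2 lost peaks, and Pofut1, Dtx3 and Neurl1a had 1 lost peak each. For this list kept peaks came to 1.26 per Mb against 0.177 for all genes, and lost peaks to 4.42 against 1.18. Gained peaks came to 0.316 against 0.605. Rbpj itself had no Notch peak.

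Of the 12 receptor and ligand genes, 1 had a kept (8.33%), 1 a lost (8.33%) and 3 a gained peak (25%). Over all protein-coding genes the shares were 1.88%, 10.6% and 5.80%. Per Mb the list had 1.66 kept, 1.11 lost and 4.98 gained peaks, against 0.177, 1.18 and 0.605 over all genes. Its 9 gained peaks include the 5 at Notch1 described below. The ligand gene Dll1, expressed by differentiating progenitors, had 2 RGC peaks, 1 on a start site and 1 at 2.73 kb upstream, and neither was kept. The receptor gene Notch2 and the Notch-binding gene Dner had no RGC peak and 2 gained peaks each. Notch1 had 3 kept peaks and 5 gained peaks. Of the gained peaks, 4 touched exons 28 to 34 of the 34 exons of Notch1 (chr2:26458793-26465756 from the first to the last), the stretch that encodes the end of the protein, and no RBPJ peak of either cell type overlapped them. The NICD plasmids of both cell types carry this coding sequence, and no RGC Notch peak was called on it. Whether plasmid DNA gave these peaks was not tested. Leaving out all peaks nearest to Notch1 changed the kept share to 13.0% and the gained share to 76.5%.

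Radial glia genes carried Notch peaks of every class. Of 26 regulators and markers of radial glia, 25 were nearest to a Notch peak in at least 1 cell type. Among all protein-coding genes 11.5% had an RGC peak and 6.92% an IPC peak, and in this list 22 (84.6%) and 23 (88.5%) did. Kept peaks were found at 12 of the 26, lost peaks at 20 and gained peaks at 19, with 53 gained peaks in all. Gained peaks came to 6.77 per Mb, against 0.605 over all genes, and lost peaks to 6.39 per Mb, against 1.18. The study names 10 of these genes or carries them on a plasmid. The other 16 had gained peaks at 10 genes and 4.84 per Mb. Mfge8 was the member with no peak.

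At 8 of the radial glia genes both cell types had Notch peaks but no overlapping calls: Sox2, Sox9, Pax6, Sox3, Sox21, Id4, Cdon and Slc1a3. By binding intensity, the study places peaks at Sox2 and Pax6 in a cluster with NOTCH and RBPJ binding potential in both cell types. The calls used here hold no intensities, so they do not show that binding at these genes is confined to 1 cell type. Pax6, a patterning and neurogenic factor of radial glia, was among these 8 genes. Its 3 RGC peaks lay over its start sites (chr2:105663397-105671298, chr2:105673031-105678083 and chr2:105679281-105682391) and all 3 were lost. Of its 2 IPC peaks, 1 lay in an intron further into the gene (chr2:105690058-105691209), and the other lay past its 3′ end, within an Elp4 intron (chr2:105719569-105723021), 27.1 kb from the nearest Pax6 start site. At Sox9, required for stem cell maintenance, 4 RGC peaks were lost and 8 IPC peaks were gained, of which 3 lay under an RGC RBPJ peak. The gained Sox9 peaks ran from 660 kb upstream to 338 kb downstream of the start site, in a gene-poor territory of 1249.8 kb. At Sox2, which sustains self-renewal, 4 peaks were lost and 5 gained, and 4 of the gained ones carried an RGC RBPJ peak and none an IPC RBPJ peak.

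Other radial glia genes had both kept and gained peaks. Prdm16, a chromatin regulator of radial glia, had 3 kept, 4 lost and 5 gained peaks. Its widest lost peak covered a start site (chr4:154520599-154534720, 14122 bp, the widest RGC Notch peak). Gli3, the repressor arm of Hedgehog signalling in dorsal cortex, had 1 kept, 9 lost and 4 gained peaks. At the Gli3 start site the RGC peak chr13:15460566-15464672 was lost, and a gained IPC peak in the adjoining intron (chr13:15464749-15467920) began just beyond its end. Ptprz1, a receptor phosphatase of radial glia, had 3 kept, 4 lost and 1 gained peak. Fabp7 (also called Blbp), a lipid-binding marker of radial glia, had 1 kept peak and no other, and Hopx, a marker of outer radial glia, had 1 kept, 1 lost and 1 gained peak. Vim and Nr2e1 had 1 lost peak each and no IPC peak, and Lhx2, Nes and Ednrb had 1 gained peak each and no RGC peak.

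Of the 12 genes that mark or drive intermediate progenitors, 1 had a kept (8.33%), 3 a lost (25%) and 1 a gained peak (8.33%). Over all protein-coding genes the shares were 1.88%, 10.6% and 5.80%. Eomes, the defining factor of IPCs, had 1 gained peak, 288 bp wide, 159 kb upstream, without a GATC site in it. Neurog2, the proneural factor that starts neurogenesis in dorsal cortex, had 2 lost peaks at 7.07 kb upstream and 7.60 kb downstream, and Btg2, an antiproliferative gene of neurogenic divisions, had 2 lost peaks, 1 on the start site. Gadd45g had 1 kept peak 71.6 kb downstream. Insm1, Neurod4, Neurog1, Hes6, Dll3, Mfap4 and Sstr2 had none. Kept, lost and gained peaks came to 0.965, 5.79 and 0.965 per Mb at this list, against 0.177, 1.18 and 0.605 over all genes. The list spans only 1.04 Mb.

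Further lists are to be read beside all protein-coding genes, of which 1.88% had a kept, 10.6% a lost and 5.80% a gained peak. Per Mb all genes had 0.177 kept, 1.18 lost and 0.605 gained peaks. Of 17 Hedgehog pathway genes, 3 had a kept, 6 a lost and 7 a gained peak, and lost and gained peaks came to 7.02 and 5.80 per Mb. Gas1 and Boc, coreceptors of Hedgehog, had 1 kept, 4 lost and 2 gained peaks each, and Gli2, a Hedgehog effector, had 2 lost and 3 gained peaks. SoxB genes had gained peaks at 4 of 5 members, 5.82 per Mb. Of 17 NFI, POU3 and TALE factors, 3 had kept, 10 lost and 9 gained peaks, and lost and gained peaks came to 5.19 and 2.41 per Mb. Nfib, a gliogenic and radial glia factor, had 9 lost and 2 gained peaks and none in common, whereas Pou3f3 had 4 kept, 10 lost and 4 gained peaks and Meis2 had 3 kept, 3 lost and 5 gained peaks. Wnt pathway genes had lost peaks at 12 (2.12 per Mb) and gained peaks at 10 of 44 (1.72 per Mb), with Ctnnb1, which encodes beta-catenin, at 1 gained peak 59.1 kb upstream and Tcf7l2, its DNA-binding partner, at 2 lost and 3 gained peaks. Fgf pathway genes had lost peaks at 11 of 29 (2.15 per Mb) and gained peaks at 3 (0.359 per Mb, below all genes), with Fgfr2 and Fgfr3 keeping 1 site each. Genes of layer identity in projection neurons had lost peaks at 18 and gained peaks at 13 of 20, but they lie in wide territories (median 773 kb against 45.0 kb over all genes), and per Mb they had 2.77 lost and 1.70 gained peaks against 1.18 and 0.605. Kept peaks per Mb came to 0.916 for Hedgehog, 0.582 for SoxB and 1.14 for NFI, POU3 and TALE genes. They came to 0.398 for Wnt, 0.359 for Fgf and 0.497 for layer identity genes.

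Markers of microglia, of vessels and of meninges, cells that the dissected tissue could hold, had few peaks. Each of these lists had them in only 1 class. The rates rest on 1 microglia peak, 3 endothelial and pericyte peaks and 3 meningeal peaks, and the other classes held 0. A rate from the class that held peaks therefore cannot show whether these lists have more or fewer peaks than all genes. Of 12 microglia genes 1 had a Notch peak (Ptprc, kept), 0.807 kept peaks per Mb against 0.177 over all genes. Of 14 endothelial and pericyte genes 2 had lost peaks, 1.25 per Mb against 1.18. Of 10 meningeal genes 2 had gained peaks (Dcn and Pdgfra), 1.59 per Mb against 0.605. Interneuron and ventral forebrain genes had peaks in more than 1 class. Of these 16 genes, 0 had a kept, 4 a lost (25%) and 2 a gained peak (12.5%), against 1.88%, 10.6% and 5.80% over all genes. Per Mb they had 1.29 lost and 0.647 gained peaks, against 1.18 and 0.605. The part of such cells in the lists was not tested. Olfactory and vomeronasal receptor genes, 1421 in number and silent in cortex, had 1 lost and 1 gained peak, 0.0160 per Mb for either class. Each list was set beside all protein-coding genes per Mb of territory because genes in gene-poor regions collect more peaks as the nearest gene. Of the 33 lists, 21 exceeded all genes in kept, 24 in lost and 23 in gained peaks per Mb.

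**Figure D2:**
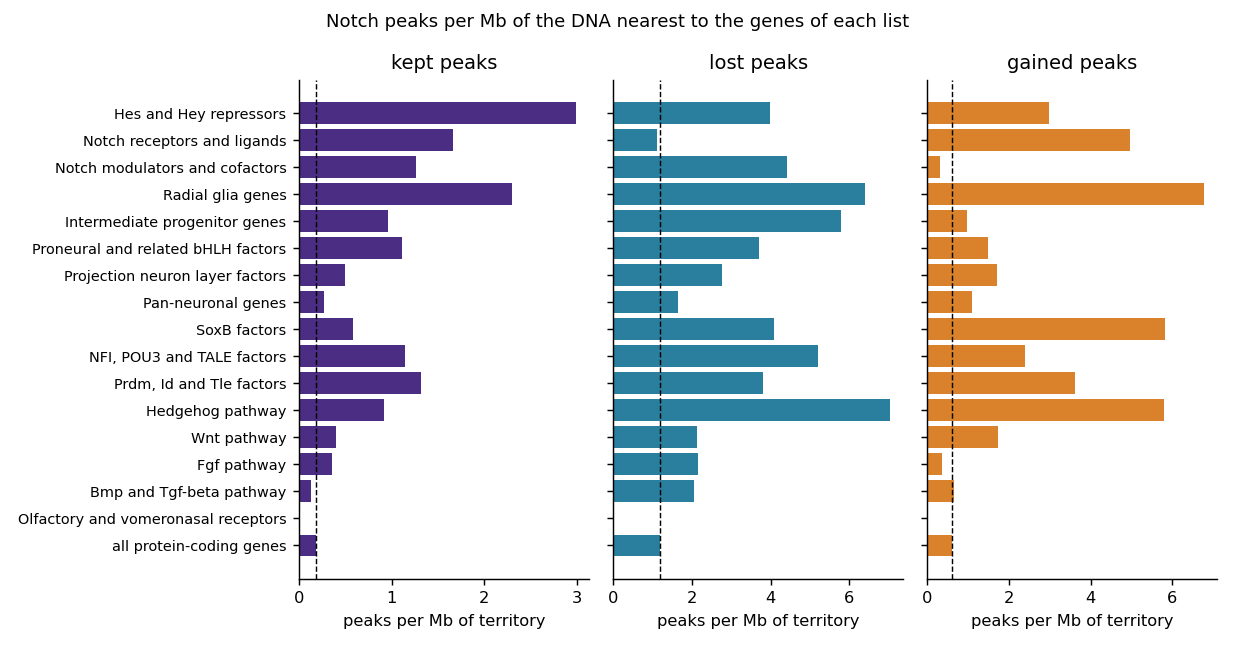
Bars give kept, lost and gained Notch peaks per Mb of the DNA nearest to the genes of 16 of the 33 lists and to all protein-coding genes (dashed line at 0.177, 1.18 and 0.605 per Mb). Radial glia genes reach 2.30, 6.39 and 6.77 per Mb, and receptor genes of the olfactory and vomeronasal families lie near 0 in all 3 panels.

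The genes with the most peaks of a class were chosen by count alone. Most kept peaks were at Sox6, Pou3f3 and Zfp608 (4 each), followed by Meis2, Mllt3 and Notch1 (3 each, first in the alphabet among genes with 3). Most lost peaks were at Msi2, which encodes an RNA-binding protein of neural stem cells (14 lost, 1 kept, 4 gained), at Epha4, a guidance receptor (11 lost, 2 kept, 7 gained), at Pou3f3 (10 lost), and at Celf2, Gli3 and Nfib (9 each). Most gained peaks were at Sorl1 and Sox9 (8 each), Epha4 and Tenm4 (7 each), and BC052040 and Creb5 (6 each). Among the kept RGC peaks with the most bases shared, summed over their IPC partners, were those nearest to Gm6133 (5281 bp) and in an intron of Celf2 (4805 bp over 3 IPC peaks).

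Genes were compared by a looser rule than sites, since peaks of both cell types nearest to a gene count even where they do not overlap. Overlapping peaks nearly always have the same nearest gene, so a higher share for genes than for sites follows largely from the rule. The shares of genes were not set against an expectation from territory or from the number of peaks per gene. They therefore cannot show whether binding is common to both cell types more often at genes than at sites. Of 2518 genes nearest to an RGC Notch peak, 789 (31.3%, interval 29.6 to 33.2) also had an IPC Notch peak, which was 51.9% of the 1519 genes with an IPC peak. Of the 789, 411 (52.1%, 48.6 to 55.6) had a shared peak and 378 had peaks at different sites only. Of the lost peaks, 35.8% were nearest to a gene with an IPC peak somewhere, and of the gained peaks 51.0% were nearest to a gene with an RGC peak. Distances between peaks of the 2 cell types were also measured, but were not set against a random placement of peaks. A lost peak lay a median of 249.8 kb from the nearest IPC Notch peak, and a gained peak 121 kb from the nearest RGC Notch peak. Within 50 kb there was a peak of the other cell type for 19.5% (18.2 to 20.9) of lost and 31.9% (29.7 to 34.2) of gained peaks. The RGC list is the longer of the 2, and how far its length moves this difference was not tested.

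RBPJ, the DNA-binding partner, was called most often at kept sites. In the RGC RBPJ list, 76.2% (72.2 to 79.8) of kept RGC peaks and 39.1% (37.5 to 40.8) of lost peaks had a partner, a difference of 37.0 points (32.7 to 41.0) that had the same direction on 20 of 20 chromosomes. In the IPC RBPJ list the shares were 31.3% (27.3 to 35.5) and 8.54% (7.63 to 9.56), a difference of 22.7 points (18.6 to 27.1), again on 20 of 20. Among the widest RGC peaks 82.4% of kept and 48.1% of lost ones had an RGC RBPJ peak, and among the narrowest 67.9% and 29.8%, so the difference was also present at like widths. Read the other way, 22.6% (20.6 to 24.7) of RGC Notch peaks with an RGC RBPJ peak were kept, against 5.54% (4.64 to 6.61) of those without. The kept share was 41.6% (36.4 to 47.1) where RBPJ was called in both cell types.

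Gained sites were not new to RBPJ in many cases. Of the 1648 gained peaks, 790 (47.9%, 45.5 to 50.4) lay under an RGC RBPJ peak, at sites where RGC Notch was not called. The IPC RBPJ list covered 336 of them (20.4%, 18.5 to 22.4). For IPC peaks that were kept the shares were 76.0% and 29.5%, and the difference between kept and gained peaks in the IPC RBPJ list was 9.08 points (4.79 to 13.6). The RGC RBPJ list holds 14097 nuclear peaks and the IPC RBPJ list 5497, so the share in one is not comparable with the share in the other. Gained peaks fell into 573 with an RGC RBPJ peak only, 119 with an IPC RBPJ peak only, 217 with both and 739 with neither. Lost peaks fell into 1072, 87, 188 and 1872 in the same order, so that 58.2% of lost and 44.8% of gained peaks had no RBPJ call in either cell type, against 20.3% of kept RGC peaks. Because Notch and RBPJ lists of a cell type share their controls, the part of these samples in the overlap within a cell type was not tested.

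Lost sites were closer to genes than kept sites. Of lost peaks 21.4% (20 to 22.8) lay on a transcription start site of a protein-coding gene, against 12.6% (9.96 to 15.9) of kept RGC peaks and 11.8% (10.4 to 13.48) of gained peaks. The difference between kept and lost peaks was -8.74 points (-11.8 to -5.20), with this direction on 17 of 20 chromosomes, although kept peaks were the wider class. With 1000 bp around each midpoint in place of the whole peak it was -5.38 points. Kept and gained IPC peaks differed by -2.21 points (-5.01 to 1.02), within counting error, and by -4.10 points among peaks of at least 1000 bp. The median distance to the nearest start site was 32.2 kb for kept, 16.1 kb for lost and 23.8 kb for gained peaks. Intergenic midpoints made up 45.3% (41.0 to 49.8) of kept, 34.0% (32.3 to 35.6) of lost and 39.1% (36.7 to 41.5) of gained peaks. Only 8.14% (6.39 to 10.3) of RGC peaks on a start site were kept, compared with 17.4% (14.9 to 20.1) of those more than 100 kb away.

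**Figure D3:**
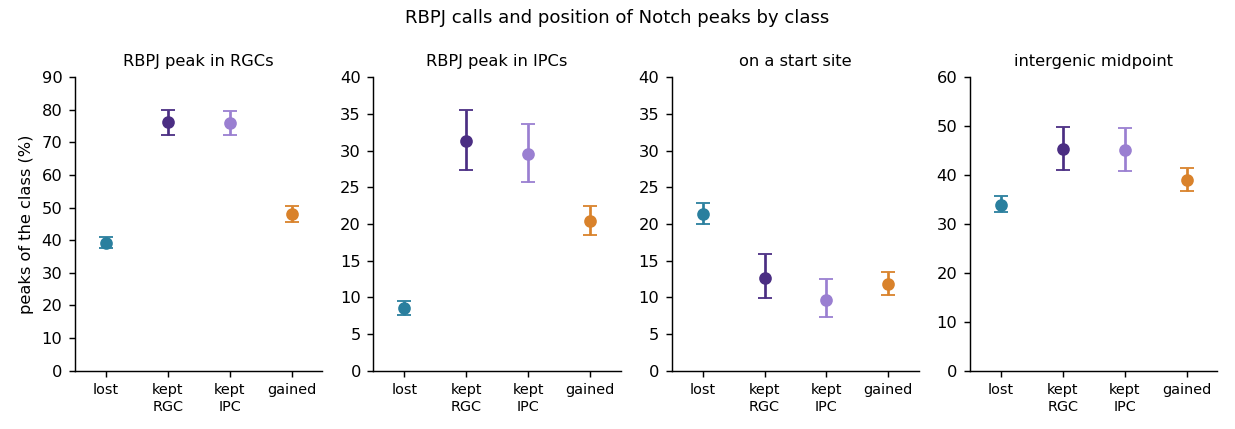
Points give the share of peaks (%) in each class that overlapped an RBPJ peak of RGCs or of IPCs, lay on a start site or had an intergenic midpoint, with 95% Wilson intervals (axis ranges differ). Kept peaks lie above lost and gained peaks for RBPJ in both lists, and lost peaks lie highest for start sites.

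Kept peaks did not differ from lost or gained peaks in the RBPJ core word beyond counting error, whereas lost and gained peaks did. TTCCCA occurred 1.10 times per kb (1.05 to 1.15) in kept and 1.06 (1.04 to 1.08) in lost RGC peaks, a ratio of 1.04 (0.987 to 1.10). In IPC peaks it occurred 1.17 times per kb in kept and 1.16 in gained peaks, a ratio of 1.01 (0.940 to 1.09). Its density in lost peaks was 0.913 times (0.874 to 0.953) that in gained peaks, with this direction on 17 of 20 chromosomes. The homeodomain word TAATTA differed more between lost and gained peaks. It occurred 0.346 times per kb (0.333 to 0.358) in lost and 0.489 (0.461 to 0.518) in gained peaks, a ratio of 0.706 (0.660 to 0.756) with the same direction on 20 of 20 chromosomes, and kept peaks lay at 0.423 as RGC peaks and 0.495 as IPC peaks. The NFI-type word TTGGCA was also sparser in lost than in gained peaks, at 0.564 and 0.748 per kb. The ratio was 0.755 (0.715 to 0.798), with this direction on 19 of 20 chromosomes. Kept peaks lay between, at 0.630 as RGC peaks and 0.692 as IPC peaks. The octamer ATGCAAAT, read by POU factors, was denser in kept than in gained IPC peaks, at 0.151 and 0.109 per kb. The ratio was 1.39 (1.12 to 1.72), with this direction on only 13 of 20 chromosomes. The octamer was also denser in kept than in lost RGC peaks, by a ratio of 1.34 (1.13 to 1.58), on 15 of 20. Counts took both strands, and overlapping copies were counted.

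**Figure D4:**
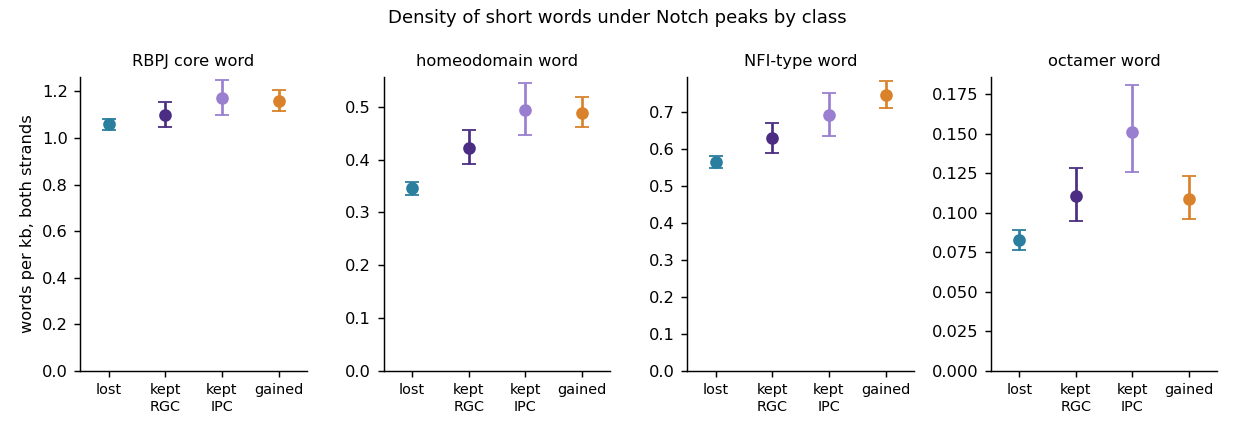
Points give copies per kb of the RBPJ core, homeodomain, NFI-type and octamer words on both strands under lost, kept and gained Notch peaks, with 95% Poisson counting intervals. The RBPJ core, homeodomain and NFI-type words are each lowest in lost peaks, at 1.06, 0.346 and 0.564 per kb.

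Base composition differed less between classes than these words did. GC content was 45.5% in kept and 46.5% in lost RGC peaks and 45.3% in kept and 46.6% in gained IPC peaks, with an SD over chromosomes of up to 1.68 points. GATC sites, the only places that Dam can mark, occurred 3.58 times per kb in lost and 2.56 in gained peaks, a ratio of 1.40 (1.36 to 1.44), and 104 gained peaks (6.31%) held no GATC, against 25 lost peaks (0.777%). IPC peaks were also narrower. Within classes of like width the ratio of TAATTA in lost to gained peaks was 0.763. The part of GATC density in the word densities, and that of width in TTGGCA and ATGCAAAT, were not tested. Restricted to peaks off start sites, TAATTA remained at 0.394 per kb in lost and 0.521 in gained peaks.

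The consensus file of the study gives each merged region 1 of 8 k-means clusters made from binding intensities of these same samples, so the following is a description. The study describes clusters 2, 6 and 7 as sites where NOTCH and RBPJ both bind in either cell type. It describes cluster 4 as bound by both proteins in RGCs, and cluster 1 by NOTCH alone in RGCs. Lost peaks fell mainly in cluster 1 (1524 peaks, 47.3%) and cluster 4 (791 peaks, 24.6%). Gained peaks fell mainly in cluster 6 (909 peaks, 55.2%), cluster 2 (305 peaks, 18.5%) and cluster 7 (252 peaks, 15.3%). Most gained peaks thus lay in clusters that the study takes as bound in RGCs as well, although no RGC Notch peak was called there. Kept RGC peaks were split between cluster 6 (185 peaks, 38.3%), cluster 2 (167 peaks, 34.6%) and cluster 4 (63 peaks, 13.0%).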

How the data were processed

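Targeted DamID libraries of electroporated cortex were mapped to mm10 (GRCm38). Per the study's methods, each fusion sample was set against each Dam-only sample in MACS2 (broad mode), and regions passing an FDR of 1e-05 throughout were retained, so each deposited list pools its samples. The score column of the deposited lists is constant and was not used. The consensus file adds a cluster number set by the authors. Mapped depth and per-sample values were not analysed here.

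Peaks on nuclear chromosomes were compared by overlap of at least 1 bp and given the protein-coding gene with the nearest start site in GENCODE M21 (21938 genes). Territory is the DNA nearest to a gene's start sites. Words and GC content were counted in the GRCm38 sequence of RefSeq, whose build matches that of the files, and promoters came from the RefSeq set of the same build. Shares carry Wilson, differences Newcombe and densities Poisson 95% intervals, with no test, since a list is 1 sample. Genes were named if they had the most peaks of a class (6 per class), led a gene list (3 per list), had the most bases shared in a kept peak (5), belonged to Notch pathway or intermediate progenitor lists, or are named in the study. Of the listed symbols, 2 did not match (Cyr61 and Ctgf), but these genes were counted under their current symbols, Ccn1 and Ccn2. The members and lists were chosen with earlier results of these data known. Overlap and interval routines were tested on simulated data. Python 3.11.15, numpy 2.4.6, pandas 2.3.3, pysam 0.24.0 and matplotlib 3.10.9 were used. A result for 1 gene chosen by the naming rule is not reported here.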

Additional observations from a re-analysis of the deposited data

Results flagged for a closer look

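The IPC Notch list held 4 peaks on the mitochondrial genome, outside the nuclear comparison, whereas the RGC Notch list held 0. The IPC RBPJ list held 5 such peaks and the RGC RBPJ list 3. They were called against the Dam-only controls that the lists of a cell type share, and the files hold no value of a single sample with which to follow them.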

How the results depend on the processing

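Of 85 values recomputed under alternative settings for 17 results, 67 stayed inside the interval of the reported value, 3 counts of gene lists stayed within 1.5 times, and 15 moved further. Those counts are of lists whose share of genes with a kept peak exceeded that of all genes, 26 of 33. They were 18 with any annotated gene, 23 within 100 kb and 26 from midpoints. The counts of lists by peaks per Mb were not recomputed. The interval was the 95% interval, except for GC content, where it was the SD over chromosomes on either side of the value. The difference in GC content between lost and gained peaks, -0.069 points with an SD band that includes 0, changed sign to 0.0036 among peaks of at least 1000 bp and 0.067 around midpoints. No difference whose interval or SD band excludes 0 changed sign. Inside its interval, the difference between kept and lost peaks on start sites was -5.38 points with midpoints. The kept share of RGC peaks was 5.78% with a reciprocal overlap of 50%, 10.6% among peaks of at least 1000 bp and 10.02% with 1000 bp around each midpoint. The gained share was 90.1% with the reciprocal overlap and 82.6% with midpoints. The difference between kept and lost peaks in IPC RBPJ calls was 18.5 points with midpoints. The ratio of TAATTA density in lost to gained peaks was 0.763 within classes of width and 0.757 off start sites, the latter chosen after seeing the data, as was leaving out peaks nearest to Notch1. With the nearest start site of any annotated gene, 23.3% of RGC Notch genes had an IPC peak and 62.9% of genes with peaks in both kept a peak, and within 100 kb the former was 25.96%. Lost peaks lay within 10 kb of an IPC peak in 6.06% and within 200 kb in 45.2%, and gained peaks within these distances of an RGC peak in 10.9% and 63.8%. The cause of these shifts was not tested beyond what the settings themselves change. A stricter score threshold was not run because the scores are constant, and leaving out a replicate was not possible with pooled lists. No paired analysis was possible because each list pools all samples of its group. Depth is unknown, so a missing call cannot be told from low coverage.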
